A study of Mus musculus with 32 samples.

Results

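The endoplasmic reticulum (ER) chaperones and the genes of the unfolded protein response (UPR) were followed through the first 5 weeks of life in skeletal muscle of *Mtm1* knockout (KO) and wild-type (WT) mice. The group consisted of 32 genes chosen by name, with no rule on their measured levels but with earlier results of these data known. All 32 were found among the 54838 genes of the table. By role they were 9 lumenal folding chaperones, 7 lectin chaperones and disulfide isomerases, 8 genes of ER-associated degradation, 5 UPR sensors and regulators, and 3 genes of the translocation channel and its neighbourhood. Polyadenylated RNA was sequenced from tibialis anterior muscle of C57BL6/J mice at postnatal day 1 (P1), P14, P21 and P35, with 4 WT and 4 KO libraries at each age and 32 in all. The KO mice carry a targeted deletion in exon 4 of the X-linked *Mtm1* gene, which encodes the phosphoinositide phosphatase myotubularin, in all cells and not in muscle fibres alone. WT mice were littermates, and no sample received a treatment. The labels do not say whether a library came from 1 mouse or from several, so *P*-values measure the spread between these libraries.

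Proteins that enter the ER pass through the SEC61 channel, are folded by chaperones and disulfide isomerases, and, where folding fails, are extracted and degraded. When unfolded protein accumulates, the sensors IRE1 (gene *Ern1*), ATF6 and PERK (gene *Eif2ak3*) are activated. IRE1 splices the *Xbp1* transcript into the form that encodes an active transcription factor, ATF6 is cleaved to release another, and PERK phosphorylates eIF2α and thereby lowers translation. XBP1 and ATF6 in turn raise transcription of chaperone and degradation genes. In muscle, part of the ER is specialised as the sarcoplasmic reticulum, which stores calcium. Gene counts give the abundance of each transcript and carry no information on splicing of *Xbp1*, cleavage of ATF6 or phosphorylation by PERK.

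The ER stress response element (ERSE), the sequence known to be bound by ATF6 together with NF-Y, was frequent in the promoters of the group, and the matched sites are shown because the members with a site are compared with the others below. RefSeq promoter windows on GRCm38.p6, from 250 bases before to 50 bases after the start of each gene, were found for 27 of the 32 members. ERSE, searched on both strands as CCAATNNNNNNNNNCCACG, was found in 9 of these 27 genes (33.3%) against 37 of 27025 genes with a window (0.137%). The members were chosen by name as ER chaperone and UPR genes, so a higher share of this element is not independent of that choice. Capitals mark the fixed letters of the element, and each site is written in the direction of the motif.
Hspa5 (chr2:34772025-34772043, + strand): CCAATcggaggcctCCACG
Hsp90b1 (chr10:86705638-86705656, - strand): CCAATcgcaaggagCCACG
Hsp90b1 (chr10:86705533-86705551, + strand): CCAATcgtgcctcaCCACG
Dnajc3 (chr14:118937827-118937845, + strand): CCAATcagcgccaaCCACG
Creld2 (chr15:88819520-88819538, - strand): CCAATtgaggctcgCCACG
Calr (chr8:84847075-84847093, + strand): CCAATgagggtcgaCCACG
Canx (chr11:50325800-50325818, - strand): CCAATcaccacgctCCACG
Pdia6 (chr12:17266491-17266509, + strand): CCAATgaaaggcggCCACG
Syvn1 (chr19:6046532-6046550, + strand): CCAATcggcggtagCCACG
Derl3 (chr10:75893242-75893260, - strand): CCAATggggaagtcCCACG
The related element ERSE-II, searched on both strands as ATTGG, any base and CCACG, was found in 2 members (7.41%) against 12 of all genes (0.0444%). Its sites are written in the same way.
Dnajb11 (chr16:22857852-22857862, + strand): ATTGGcCCACG
Herpud1 (chr8:94386377-94386387, + strand): ATTGGgCCACG
The core of the UPR element, searched on both strands as TGACGTGG, was found in 0 of 27 members and in 193 of all genes (0.714%). Only this spelling was searched, so forms that differ in a base, such as tgacgtga in the *Hspa5* stretch below, were not counted. The same holds for ERSE and ERSE-II, so ccaatcagcggcctccaac in that stretch was not counted. A member without a match lacks the exact letters and may carry a form that differs. ERSE and ERSE-II share the letters CCACG, no site matched both, and a match is a match of letters and not a measured binding site. The 250 bases upstream of *Hspa5* are printed whole because this gene encodes BiP, the abundant chaperone that holds the sensors inactive. Capitals mark its exact ERSE match, 65 bases before the start.
Hspa5 upstream (chr2:34771840-34772089, + strand): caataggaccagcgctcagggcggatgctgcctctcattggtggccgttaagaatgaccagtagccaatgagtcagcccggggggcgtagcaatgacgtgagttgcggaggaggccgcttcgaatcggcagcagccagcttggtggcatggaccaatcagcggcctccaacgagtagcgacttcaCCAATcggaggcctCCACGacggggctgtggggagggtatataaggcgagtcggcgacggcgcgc

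The 32 genes differed widely in level. In WT muscle at P35, *P4hb*, a disulfide isomerase that is also a subunit of prolyl 4-hydroxylase, had 70.6 ± 4.02 CPM (counts scaled to library size) per kb of exon (SD, *n*=4), the highest level per length. It was followed by *Calr*, the calcium-binding lectin chaperone calreticulin, at 66.7 ± 6.12, *Hspa5* at 57.7 ± 6.48 and *Herpud1*, an adaptor of ER-associated degradation, at 56.3 ± 6.45 CPM per kb. *P4hb* and *Calr* differed by less than their SDs, as did *Hspa5* and *Herpud1*, whereas *Calr* and *Hspa5* differed by more. At the other end were *Ern1* at 2.27 ± 0.201, *Edem2*, which directs glycoproteins to degradation, at 2.02 ± 0.177, *Sdf2l1* at 1.95 ± 0.356 and *Eif2ak3* at 1.42 ± 0.102 CPM per kb, and *Derl3*, a degradation gene known from secretory cells, which had 1 to 4 counts per library. *Derl3* did not pass the filter on low counts, and the other 31 members were tested in every comparison. The length used joins all annotated exons of a gene (2861 bases for *P4hb* and 4229 for *Hspa5*), so the order between genes depends on the annotation. The order also changed with age. *Herpud1* was at rank 13 of 32 in WT at P1 and at rank 4 at P35, *Dnajb9*, an Hsp40 co-chaperone of BiP, moved from rank 21 to rank 9, and *Sec61a1*, the pore-forming subunit of the channel, moved from rank 12 to rank 24.

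**Figure D1:**
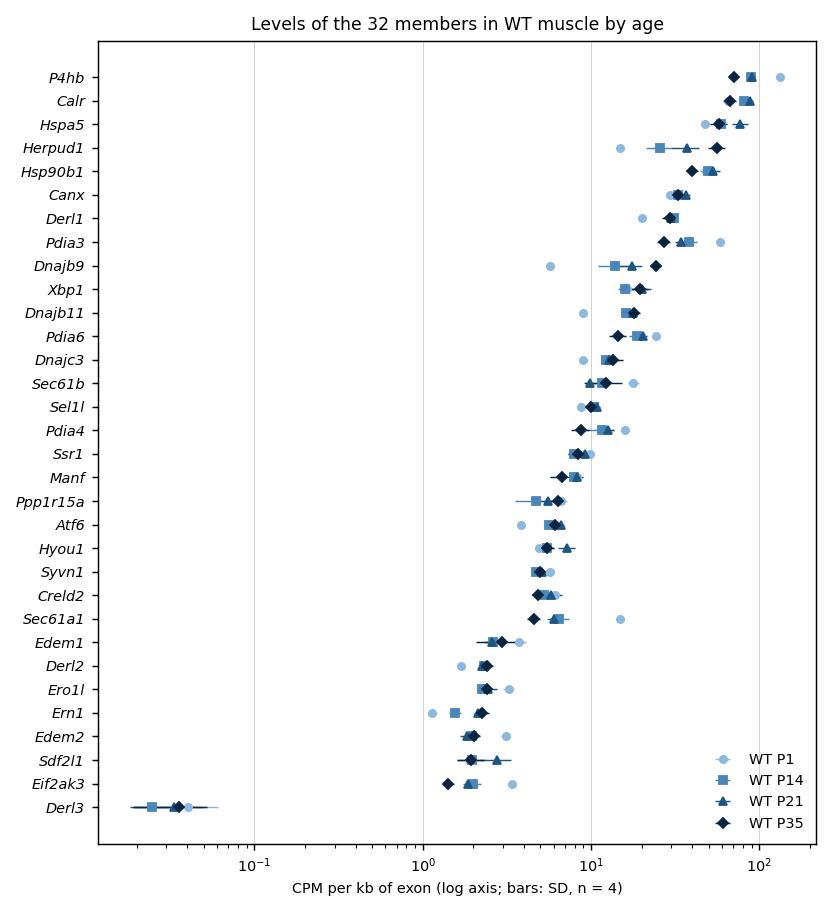
Mean CPM per kb of exon (log axis) of the 32 members in WT muscle at P1, P14, P21 and P35, with bars for the SD of 4 libraries, ordered by the level at P35. *P4hb*, *Pdia3* and *Sec61a1* were highest at P1, *Herpud1* and *Dnajb9* were highest at P35, and *Derl3* lay far below all others.

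Library totals ranged from 49321035 to 85631408 counts. *Mtm1* had 5.26 to 6.02 CPM in WT against 2.32 to 3.91 CPM in KO at P1 (log2 fold change −0.98 ± 0.17 SE, adjusted *P*=0.0669), and log2 fold changes of −2.34, −2.71 and −2.56 at P14, P21 and P35. The 8 skeletal muscle fibre markers summed to 15700 to 31770 CPM at P1 and to 66550 to 183800 CPM later. KO P1 replicate 4 stood apart, with the lowest fibre sum (15700 CPM) and the highest *Mtm1* of the KO libraries of that age (3.91 CPM). The 12 keratinocyte markers summed to 1949 to 7061 CPM in the P1 libraries and to 8.82 to 46.3 CPM later, so the P1 libraries carried skin transcripts. At P14, replicate 4 of both genotypes was the lowest of its group for *Hspa5*, *Calr* and *Pdia6* and the highest for *Dnajb9*, *Herpud1* and *Ppp1r15a*. Values are scaled by the trimmed mean of M values (TMM). With library totals alone, the median over all genes of the log2 fold change moved by 0.40 for KO against WT at P35, by 0.19 at P21, and by −0.78 for P14 against P1 in WT.

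To ask how loss of *Mtm1* changed the group, KO and WT were compared at each age, and a gene was called differentially expressed (DEG) at an adjusted *P* under 0.01 with a change above 1.5-fold. At P35, *Sdf2l1* and *Manf* were DEGs, both higher in KO (2 of 31, 6.45%), and 0 members were DEGs in the lower direction. Across all 15595 genes tested, 8.49% were DEGs in the higher and 7.52% in the lower direction. The group's share thus lay near the background in the higher direction and, with 0 members, below it in the lower. At an adjusted *P* under 0.05 with no fold minimum, 11 members were higher (35.5%) and 2 were lower (6.45%), against 21.4% and 20.1% of all genes. The 2 lower were *Herpud1* and *Dnajb9*. Without WT P35 replicate 1 or 2 or KO P35 replicate 1 or 3, each left out alone, *Herpud1* was the 1 lower member, and without WT P35 replicate 3 there were 3, with *Dnajc3* added. The members had a median log2 fold change of 0.23 against 0.04 for all genes, and 24 of 31 were above 0. In whole muscle, fewer cells of a type and less RNA per cell cannot be told apart.

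*Sdf2l1* encodes a lumenal partner of the BiP system. It was at 2.09, 2.71, 1.78 and 2.05 CPM (WT) against 3.19, 5.60, 3.74 and 4.04 CPM (KO) at P35, in order of replicate. Every KO library lay above every WT library, on 75 to 116 counts per library in WT. The log2 fold change was 0.97 ± 0.21 (SE; adjusted *P*=0.00512). It remained a DEG in 3 of the 8 fits that left out a library, with a largest adjusted *P* of 0.0176. *Manf*, an ER-resident and secreted factor that binds BiP, was at 21.1, 26.6, 20.01 and 26.7 CPM (WT) against 32.2, 35.6, 41.4 and 44.2 CPM (KO). The groups did not overlap, the log2 fold change was 0.72 ± 0.13 (adjusted *P*=0.00200), and it remained a DEG in all 8 such fits. *Dcaf1* on the opposite strand and *Rbm15b* on the same strand overlap *Manf*, with 74.6% and 67.7% of its mean count. The overlaps are of whole gene spans, and reads in shared exons were not examined. The study names a directional library kit, but the strand setting of the counting is not given in the sources used here. Strand would not separate *Rbm15b* in any case, so the values of *Manf* are uncertain.

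Of the other lumenal chaperones, *Creld2*, which acts on disulfide bonds, was at 6.301, 7.16, 6.15 and 6.69 CPM (WT) against 7.91, 8.89, 10.7 and 11.2 CPM (KO) at P35. The groups did not overlap and the change was just short of the fold minimum (log2 fold change 0.58 ± 0.12, adjusted *P*=0.00512). *Hsp90b1*, which encodes GRP94, and *Dnajb11*, an Hsp40 co-chaperone of BiP, were higher by 0.41 ± 0.096 and 0.41 ± 0.086 on the log2 scale (adjusted *P*=0.00810 and 0.00490). *Hspa5* was at 251, 271, 206 and 248 CPM (WT) against 230.4, 317, 278 and 309 CPM (KO). For BiP the groups thus overlapped (log2 fold change 0.24 ± 0.12, adjusted *P*=0.133). *Hyou1*, a large Hsp70-like chaperone and exchange factor of BiP, had means of 39.5 ± 4.03 CPM (WT) and 39.7 ± 3.32 CPM (KO; adjusted *P*=0.793). *Dnajb9* was lower in KO, at 52.2 ± 2.05 against 61.8 ± 4.81 CPM (log2 fold change −0.22 ± 0.075, adjusted *P*=0.0397). *Dnajc3*, a co-chaperone of BiP that inhibits PERK, had −0.25 ± 0.10 on the log2 scale (adjusted *P*=0.0811). At an adjusted *P* under 0.05, 5 of the 9 lumenal chaperones were higher, 1 was lower and 3 did not pass.

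Among the lectin chaperones and isomerases, 4 of 7 were higher in KO at P35 at an adjusted *P* under 0.05. *Pdia3* (ERp57), which works with the lectin chaperones on glycoproteins, was at 74.7, 91.7, 83.4 and 89.1 CPM (WT) against 99.8, 138, 127 and 121 CPM (KO), with a log2 fold change of 0.54 ± 0.11 (adjusted *P*=0.00359). *Pdia6* was at 51.4, 61.6, 47.1 and 56.4 CPM (WT) against 61.0, 84.4, 87.1 and 84.1 CPM (KO), with 0.57 ± 0.13 (adjusted *P*=0.00590). The groups of *Pdia3* did not overlap, whereas KO replicate 1 lay within the WT range of *Pdia6*. *Pdia4* rose by 0.46 ± 0.13 (adjusted *P*=0.0184), and *Canx*, the membrane-bound lectin chaperone calnexin, by 0.27 ± 0.081 (adjusted *P*=0.0258). *Calr*, *P4hb* and *Ero1l*, the oxidase that recharges the isomerases, did not pass (adjusted *P*=0.0844, 0.0548 and 0.139). Without KO P35 replicate 1 the count of member DEGs was 5, with *Creld2*, *Pdia3* and *Pdia6* added. It was 3 without replicate 2 of either genotype, with *Pdia6* (WT) or *Creld2* (KO) added, and 1 (*Manf*) without WT P35 replicates 1, 3 or 4 or KO P35 replicates 3 or 4, each left out alone.

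Degradation genes moved in both directions at P35. *Herpud1* was at 150.2, 119, 137 and 119 CPM (WT) against 106, 75.0, 97.5 and 90.7 CPM (KO). Every KO library lay below every WT library (log2 fold change −0.48 ± 0.12, adjusted *P*=0.0107). *Derl2*, a membrane component of the retrotranslocation machinery, was higher, at 25.3 ± 1.77 against 19.4 ± 1.62 CPM (log2 fold change 0.41 ± 0.085, adjusted *P*=0.00442). Its values are uncertain, since *Mis12* overlaps it on the opposite strand with 59.2% of its mean count. *Syvn1* (the ubiquitin ligase HRD1), its partner *Sel1l*, *Edem1*, a relative of *Edem2*, *Edem2* itself and *Derl1* did not pass, with adjusted *P* from 0.0527 to 0.466.

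Of the UPR sensors and regulators, *Xbp1* was higher at P35 and the 3 sensors did not pass. *Xbp1* was at 67.6, 68.3, 52.4 and 65.3 CPM (WT) against 66.8, 77.8, 82.2 and 87.7 CPM (KO), so KO replicate 1 lay within the WT range (log2 fold change 0.34 ± 0.11, adjusted *P*=0.0342). *Atf6* was at 57.7, 52.2, 52.5 and 63.4 CPM (WT) against 52.2, 57.8, 52.4 and 50.3 CPM (KO), with −0.06 ± 0.084 on the log2 scale (adjusted *P*=0.590). *Ern1* was at 18.2, 16.4, 19.2 and 20.3 CPM (WT) against 18.1, 18.5, 16.2 and 15.6 CPM (KO), with −0.09 ± 0.094 (adjusted *P*=0.478). The groups of both sensors overlapped. *Eif2ak3* was at 8.30, 8.17, 9.50 and 8.37 CPM (WT) against 8.15, 11.1, 7.81 and 7.54 CPM (KO), again with overlap (0.04 ± 0.14, adjusted *P*=0.852). *Ppp1r15a* (GADD34), which directs dephosphorylation of eIF2α, had 0.19 ± 0.11 (adjusted *P*=0.186). The translocation genes *Sec61a1*, *Sec61b* and *Ssr1*, a subunit of the translocon-associated protein complex, had log2 fold changes of 0.26 ± 0.11, 0.01 ± 0.16 and 0.06 ± 0.094 (adjusted *P*=0.0912, 0.983 and 0.660).

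**Figure D2:**
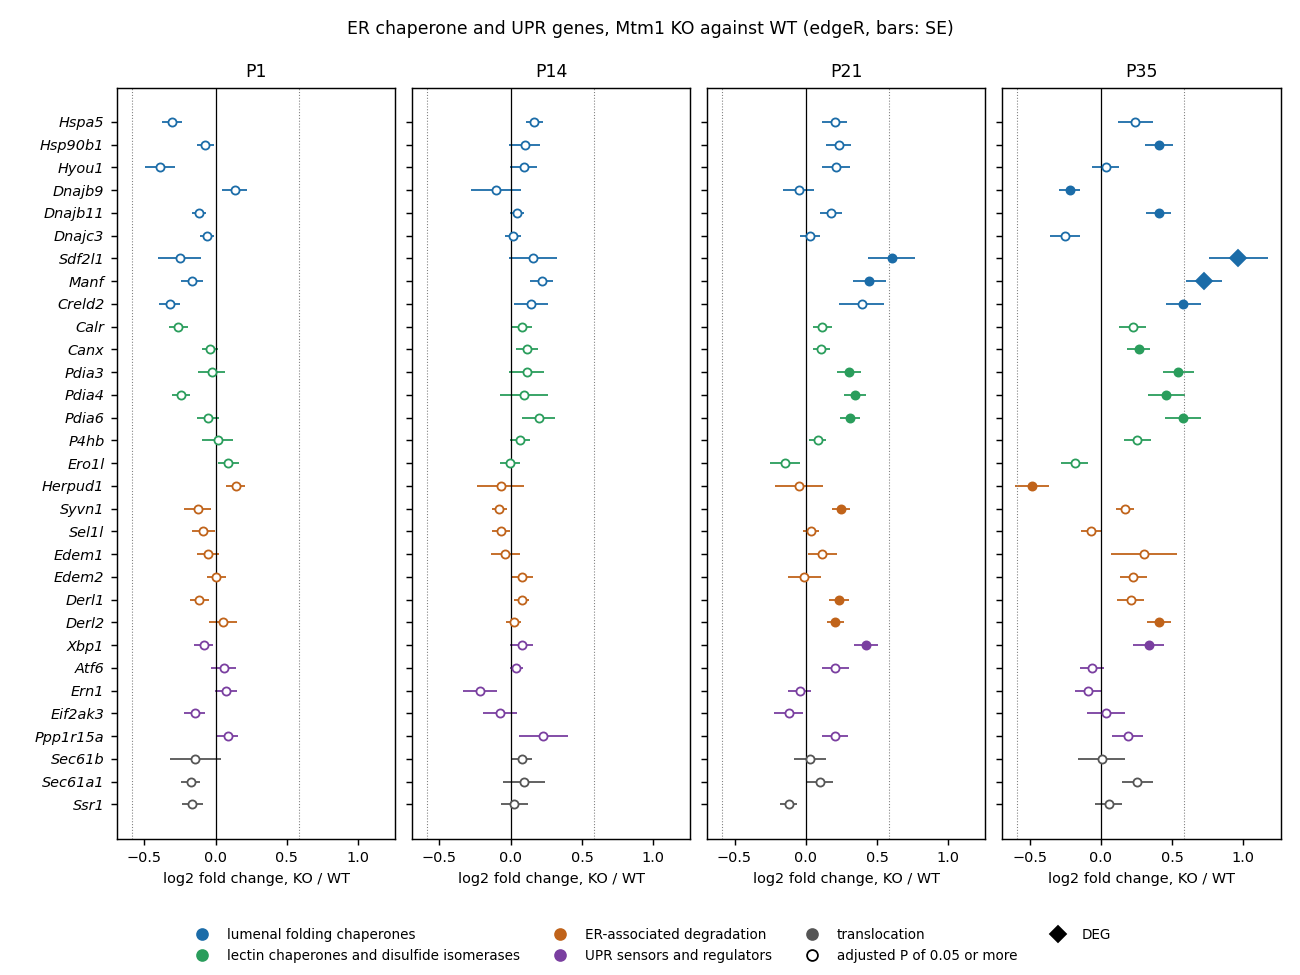
Log2 fold change of KO against WT with its SE (bars) for the 31 tested members at P1, P14, P21 and P35. Filled symbols have an adjusted *P* under 0.05, diamonds are DEGs, colours give the role, and dotted lines mark a change of 1.5-fold. At P1 only 9 members lie above 0 and no symbol is filled, while 24 members lie above 0 at P21 and at P35, and *Herpud1* and *Dnajb9* lie below 0 with filled symbols at P35.

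At P21, 0 of 31 members were DEGs by edgeR, against 3.18% of 15179 genes in the higher and 1.5% in the lower direction. DESeq2 called 1 member, *Sdf2l1*, and 14 members (45.2%) had an unadjusted *P* under 0.05, against 35.1% of all genes. At an adjusted *P* under 0.05 with no fold minimum, 9 members were higher (29.0%) and 0 lower, against 11.4% and 9.56% of all genes. They were *Sdf2l1*, *Manf*, *Pdia3*, *Pdia4*, *Pdia6*, *Syvn1*, *Derl1*, *Derl2* and *Xbp1*, and 24 of 31 members were above 0, with a median of 0.18 against 0.01 for all genes. DEGs over all genes fell from 709 in every fit that left out a library, to 417 without WT P21 replicate 1 and to 424 without KO P21 replicate 2. The count of 9 members fell in every such fit as well. It was 3 without WT P21 replicate 1 or without KO P21 replicate 2, 4 without KO P21 replicate 3, 5 without replicate 4 of either genotype, and 7 or 8 without any of the other 3.

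*Xbp1* had the smallest adjusted *P* of the group at P21. It was at 75.1, 68.4, 59.9 and 56.3 CPM (WT) against 89.9, 89.6, 81.9 and 83.7 CPM (KO), with no overlap (log2 fold change 0.42 ± 0.086, adjusted *P*=0.00906). *Sdf2l1* was at 2.24, 3.39, 3.72 and 2.98 CPM (WT) against 4.42, 5.06, 4.88 and 4.25 CPM (KO), again with no overlap (0.60 ± 0.17, adjusted *P*=0.0301). *Manf* rose from 29.0 ± 2.70 to 39.1 ± 5.47 CPM (0.45 ± 0.11, adjusted *P*=0.0222), and *Pdia4*, *Pdia6* and *Pdia3* rose by 0.35, 0.31 and 0.30 on the log2 scale. *Hspa5* was at 326 ± 34.3 CPM (WT) and 372 ± 20.8 CPM (KO; adjusted *P*=0.128). *Herpud1*, lower at P35, had means of 86.4 ± 16.2 CPM (WT) and 83.0 ± 18.2 CPM (KO; adjusted *P*=0.874). Of the sensors, *Atf6* had means of 61.3 ± 2.99 and 70.2 ± 10.5 CPM, *Ern1* of 17.5 ± 0.906 and 16.9 ± 1.64 CPM, and *Eif2ak3* of 11.2 ± 0.482 and 10.2 ± 1.35 CPM in WT and KO (adjusted *P*=0.146, 0.743 and 0.433). *Syvn1* is overlapped on the opposite strand by *Mrpl49*, which had 96.6% of its mean count, so its values are uncertain.

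At P14, 0 of 31 members were DEGs by edgeR or DESeq2, and 0 passed an adjusted *P* of 0.05 by edgeR, against 0.0318% and 0.0954% of 15728 genes. At an unadjusted *P* under 0.05 there were 2 members (6.45%), close to the 6.82% of all genes. *Hspa5* was at 248, 258.5, 253 and 242 CPM (WT) against 289.8, 289, 289 and 258.8 CPM (KO). The lowest KO library, replicate 4, lay only just above the highest WT library (log2 fold change 0.17 ± 0.062, adjusted *P*=0.656). *Manf* had 0.22 ± 0.079 (adjusted *P*=0.647). *Xbp1* had means of 51.7 ± 4.53 and 54.6 ± 4.59 CPM, *Atf6* of 51.7 ± 0.677 and 53.2 ± 2.22 CPM, *Ern1* of 12.8 ± 1.09 and 11.1 ± 1.82 CPM, and *Eif2ak3* of 11.9 ± 1.46 and 11.3 ± 1.51 CPM in WT and KO. At this age libraries of the same replicate number deviated together, so the fit was repeated with that number as a block. DEGs over all genes went from 5 to 98, the count of member DEGs was 0 in both fits, and *Pdia6* and *Ppp1r15a* passed at 0.05 in the blocked fit (log2 fold change 0.19 and 0.24, adjusted *P*=0.0446 and 0.0367).

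At P1, 0 of 31 members were DEGs by edgeR or DESeq2, and 0 passed an adjusted *P* of 0.05 by edgeR, against 0.0442% and 0.243% of 18100 genes. At an unadjusted *P* under 0.05 there were 7 members (22.6%), against 10.9% of all genes. The log2 fold change was above 0 in 9 of 31 members, with a median of −0.09 against 0.01 for all genes. *Hspa5* was at 218, 205, 195 and 191 CPM (WT) against 155, 172, 159 and 163 CPM (KO), with every KO library below every WT library (log2 fold change −0.31 ± 0.072, adjusted *P*=0.160). *Creld2* was at 8.99, 8.06, 7.68 and 8.48 CPM (WT) against 6.55, 6.79, 6.46 and 6.51 CPM (KO), also with no overlap (−0.32 ± 0.075, adjusted *P*=0.154). *Hyou1*, *Calr* and *Pdia4* had −0.39 ± 0.10, −0.26 ± 0.066 and −0.24 ± 0.064 (adjusted *P*=0.216, 0.195 and 0.217). For 10 members (32.3%) the KO libraries all lay below the WT libraries, and for 0 members above, against 4.78% and 3.85% of all genes. Without KO P1 replicate 4 they lay below for 15 members (48.4%) against 8.2% of all genes. Leaving out a library can only raise such counts, and no other library was left out in this way. *Xbp1*, *Atf6*, *Ern1* and *Eif2ak3* had means of 53.5 ± 3.01, 35.4 ± 1.71, 9.34 ± 0.555 and 20.4 ± 0.964 CPM for WT, against 49.98 ± 2.86, 36.5 ± 4.38, 9.73 ± 0.608 and 18.2 ± 1.56 CPM for KO. The skin transcripts in these libraries ranged from 2236 to 7061 CPM in WT and from 1949 to 5785 CPM in KO, higher on average in 12 of 12 markers (0 DEGs by edgeR), and their part in the P1 values was not tested.

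**Figure D3:**
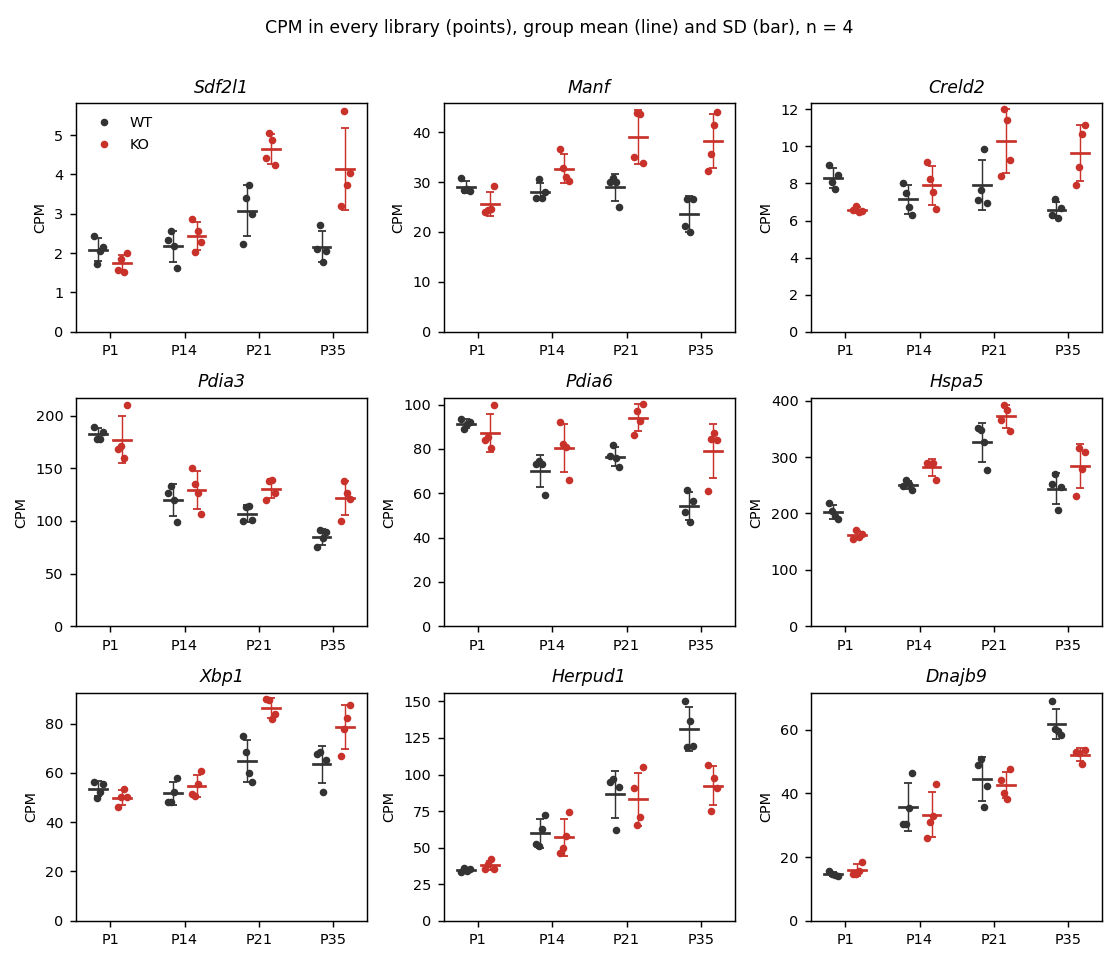
CPM of 9 members in each of the 32 libraries (points) at P1, P14, P21 and P35, with the mean (horizontal line) and SD (bar) of 4 libraries, WT in black and KO in red. At P35 every KO library of *Sdf2l1*, *Manf*, *Creld2* and *Pdia3* lay above every WT library and every KO library of *Herpud1* and *Dnajb9* below, and at P1 every KO library of *Hspa5* lay below WT.

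Whether the KO effect changed with age was tested as the difference of log2 fold changes between successive ages. By edgeR or DESeq2, 0 of 31 members passed an adjusted *P* of 0.01 from P1 to P14, from P14 to P21 or from P21 to P35, against 0.0161%, 0.425% and 0.463% of 18583 genes by edgeR. At an unadjusted *P* under 0.05 there were 5, 2 and 4 members (16.1%, 6.45% and 12.9%), against 6.46%, 12.9% and 17.4% of all genes. The first share thus lay above the background and the last 2 below it. From P1 to P14 the largest differences were in *Hyou1* (0.50 ± 0.14, adjusted *P*=0.420), *Hspa5* (0.49 ± 0.13, adjusted *P*=0.332) and *Creld2* (0.48 ± 0.18, adjusted *P*=0.626). From P14 to P21 they were in *Sdf2l1* (0.43 ± 0.25, adjusted *P*=0.495), *Xbp1* (0.33 ± 0.13, adjusted *P*=0.253) and *Syvn1* (0.31 ± 0.091, adjusted *P*=0.0881). From P21 to P35 the difference of *Herpud1* was −0.45 ± 0.22 (adjusted *P*=0.285). The members were mostly below 0 at P1 and above 0 at P21 and P35, but no member's change of effect between successive ages passed the test. The KO effect at P1 was not tested against that at P21 or P35.

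How strongly the group was raised in KO depended on the scaling. With library totals in place of TMM, 18 of 31 members were DEGs at P35, all higher, with a median log2 fold change of 0.63. The whole table moved with them, to 4349 DEGs higher and 326 lower, against 1324 and 1172 with TMM, and the median of all genes shifted by 0.40. *Sdf2l1* (1.38) and *Manf* (1.13) had the highest values of the group under both scalings, *Herpud1* (−0.08) was the 1 member of 31 below 0, and *Dnajb9* changed sign from −0.22 to 0.18, as did *Dnajc3*, *Ero1l*, *Ern1*, *Sel1l* and *Atf6*, which had not passed. The 32 genes together took 0.143% to 0.162% of all counts in WT and 0.207% to 0.262% in KO at P35, and 0.176% to 0.198% against 0.229% to 0.245% at P21, with no overlap at either age. Mitochondrial transcripts took 12.35% to 17.9% of counts in WT and 10.3% to 10.5% in KO at P35, and their part in these shares was not tested.

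**Figure D4:**
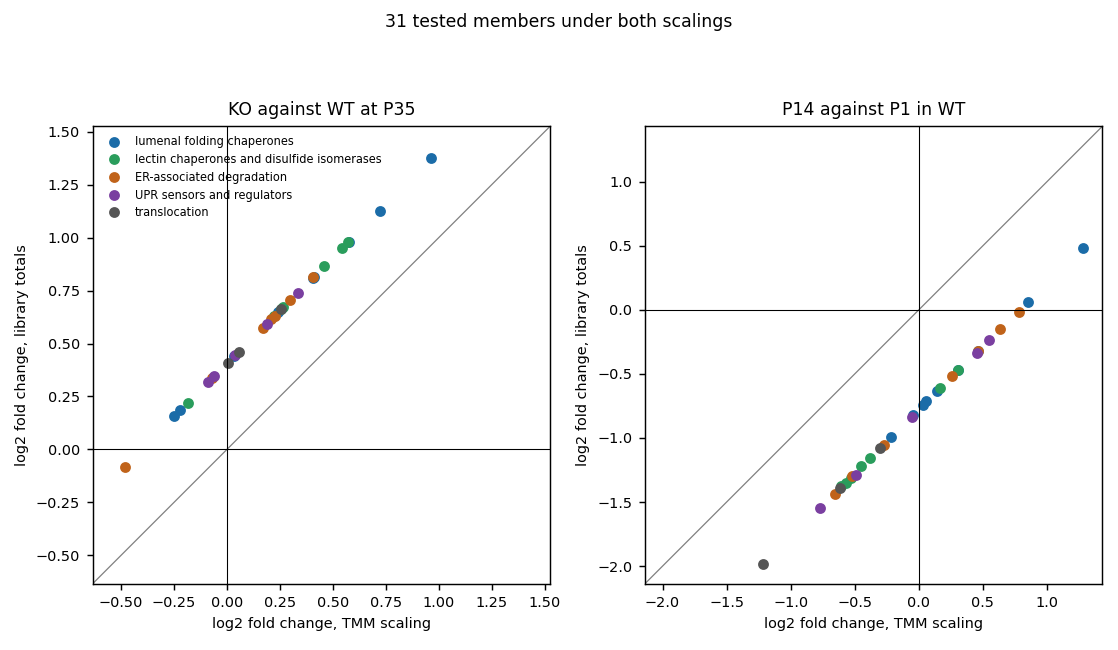
Log2 fold change of the 31 tested members with TMM scaling (x axis) and with library totals (y axis), for KO against WT at P35 (left) and P14 against P1 in WT (right). Colours give the role and the grey line marks equal values. The members lie above the line at P35, where the median of all genes shifted by 0.40, and below it for P14 against P1, where it shifted by −0.78.

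Normal maturation was followed by comparing successive ages in WT. From P1 to P14, 4 members were DEGs in the higher direction (12.9%) and 5 in the lower (16.1%), against 24.2% and 29.3% of 18583 genes. *Dnajb9* rose from 15.6, 14.6, 14.3 and 14.1 CPM (P1) to 30.4, 30.5, 35.4 and 46.3 CPM (P14), a log2 fold change of 1.28 ± 0.13 (adjusted *P*=1.17e-09). *Dnajb11* rose from 30.2, 29.9, 28.2 and 28.4 to 51.5, 50.2, 52.1 and 56.6 CPM (0.85 ± 0.064, adjusted *P*=2.76e-12). *Herpud1* rose from 33.4, 36.1, 34.0 and 35.6 to 52.7, 50.9, 62.7 and 72.6 CPM (0.78 ± 0.16, adjusted *P*=6.04e-05). These 3 genes had the largest rises, with no overlap between the ages, and *Derl1* rose as well (0.64 ± 0.074, adjusted *P*=1.24e-08), a call lost with DESeq2, with its size factors and with no filter (0.58 in each). *Sec61a1* fell from 104, 94.4, 96.7 and 107 to 47.8, 48.6, 41.9 and 34.7 CPM (−1.22 ± 0.11, adjusted *P*=1.92e-10). *Eif2ak3* fell from 19.8, 19.6, 20.4 and 21.8 to 12.7, 13.5, 11.3 and 10.2 CPM (−0.77 ± 0.11, adjusted *P*=5.44e-07). *Edem2* fell from 11.7, 10.4, 10.2 and 10.9 to 6.75, 7.01, 6.91 and 6.69 CPM (−0.66 ± 0.082, adjusted *P*=4.54e-08). The ages did not overlap for these 3 genes either, and *Sec61b* (−0.61 ± 0.15) and *Pdia3* (−0.61 ± 0.11) were the other DEGs that fell. The call of *Pdia3* was lost without WT P14 replicate 4 (−0.52) and that of *Sec61b* without WT P1 replicate 1 (−0.56). With library totals 0 members were DEGs in the higher and 20 in the lower direction, *Dnajb9* was at 0.49, and *Herpud1* and *Derl1* changed sign (−0.01 and −0.15), while the median of all genes shifted by −0.78. Markers of cell types moved over the same step, with DEGs higher for 8 of 8 fibre and 4 of 6 endothelial markers, and lower for 6 of 8 fibroblast, 5 of 8 macrophage, 5 of 8 B and plasma cell, 5 of 6 adipocyte and 12 of 12 keratinocyte markers. Fibroblast markers summed to 19330 to 25740 CPM at P1 and 5920 to 12220 CPM at P14, and their part in the members' values was not tested.

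From P14 to P21 in WT, 0 members were DEGs by edgeR or DESeq2, against 3.04% higher and 3.8% lower of all genes, and 11 members (35.5%) had an unadjusted *P* under 0.05, against 36.2% of all genes. The 3 largest log2 fold changes were in *Herpud1*, *Sdf2l1* and *Ern1*. *Herpud1* was at 52.7, 50.9, 62.7 and 72.6 CPM (P14) and 95.1, 96.8, 62.3 and 91.4 CPM (P21), with overlap (0.53 ± 0.16, adjusted *P*=0.0124), and it was a DEG without WT P14 replicate 4 or without WT P21 replicate 3. *Sdf2l1* was at 2.32, 2.57, 2.17 and 1.63 CPM at P14 and 2.24, 3.39, 3.72 and 2.98 CPM at P21 (0.50 ± 0.18, adjusted *P*=0.0408). *Ern1* was at 12.3, 11.5, 13.5 and 13.9 CPM at P14 and 18.2, 18.0, 16.2 and 17.7 CPM at P21, with no overlap (0.45 ± 0.096, adjusted *P*=9.72e-04). The 3 smallest were in *Sec61b*, *Pdia3* and *Edem2*, none of which passed. *Sec61b* was at 14.6, 15.5, 15.3 and 14.1 CPM at P14 and 13.0, 13.6, 11.1 and 12.7 CPM at P21 (−0.24 ± 0.15, adjusted *P*=0.269). *Pdia3* was at 127, 134, 119 and 99.1 CPM at P14 and 99.7, 113, 114 and 100.4 CPM at P21 (−0.16 ± 0.11, adjusted *P*=0.281). *Edem2* was at 6.75, 7.01, 6.91 and 6.69 CPM at P14 and 5.53, 6.98, 6.47 and 6.39 CPM at P21 (−0.11 ± 0.084, adjusted *P*=0.377).

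From P21 to P35 in WT, *Herpud1* was the 1 member DEG (3.23%), in the higher direction, against 2.23% higher and 1.77% lower of all genes. It was at 95.1, 96.8, 62.3 and 91.4 CPM (P21) and 150.2, 119, 137 and 119 CPM (P35), with no overlap (0.60 ± 0.15, adjusted *P*=0.00748). The call was lost in 7 of the 8 fits that left out a library of these groups and held without WT P21 replicate 2. Without WT P35 replicate 2 or 4, *Pdia4* was the 1 member DEG, in the lower direction. *Dnajb9* was at 48.9, 50.9, 35.7 and 42.2 CPM at P21 and 68.9, 60.3, 59.5 and 58.4 CPM at P35, with no overlap (0.48 ± 0.13, adjusted *P*=0.0114). *Sec61b* was at 13.0, 13.6, 11.1 and 12.7 CPM at P21 and 17.0, 19.8, 10.6 and 15.1 CPM at P35 (0.31 ± 0.15, adjusted *P*=0.167). At the other end were genes that were higher in KO at P21. *Pdia4* was at 28.2, 30.1, 34.0 and 29.5 CPM at P21 and 17.8, 22.8, 19.8 and 23.1 CPM at P35 (−0.55 ± 0.13, adjusted *P*=0.00333). *Sdf2l1* went to 2.09, 2.71, 1.78 and 2.05 CPM at P35 (−0.51 ± 0.18, adjusted *P*=0.0485). *Pdia6* was at 76.7, 81.8, 75.7 and 71.8 CPM at P21 and 51.4, 61.6, 47.1 and 56.4 CPM at P35 (−0.50 ± 0.11, adjusted *P*=0.00161). Over this step the lectin chaperones and isomerases had a median of −0.35 with 0 of 7 above 0, and the lumenal chaperones a median of −0.29.

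In KO muscle, 6 members were DEGs in the higher and 3 in the lower direction from P1 to P14 (19.4% and 9.68%, against 24.5% and 29.2% of all genes). From P14 to P21 there were 3 higher and 0 lower (9.68%, against 4.06% higher and 5.11% lower), and from P21 to P35 0 higher and 1 lower (3.23%, against 3.24% higher and 3.1% lower). From P1 to P14 *Hspa5* rose from 162 ± 6.99 to 282 ± 15.2 CPM (0.80 ± 0.09, adjusted *P*=7.21e-09), together with *Calr* (0.67 ± 0.07), *Hyou1* (0.64 ± 0.10), *Dnajb9* (1.06 ± 0.13), *Dnajb11* (1.03 ± 0.065) and *Derl1* (0.84 ± 0.074). *Sec61a1* (−0.93 ± 0.11), *Eif2ak3* (−0.68 ± 0.11) and *Ero1l* (−0.61 ± 0.081) fell. With library totals *Calr* and *Hyou1* changed sign (−0.07 and −0.09) and *Hspa5* was at 0.06. The call of *Hyou1* was also lost with DESeq2 or its size factors (0.57) and without KO P1 replicate 4 (0.51). From P14 to P21 *Sdf2l1* rose from 2.43 ± 0.364 to 4.65 ± 0.382 CPM (0.94 ± 0.18, adjusted *P*=2.79e-04), *Xbp1* from 54.6 ± 4.59 to 86.3 ± 4.07 CPM (0.66 ± 0.094, adjusted *P*=1.06e-05) and *Ern1* from 11.1 ± 1.82 to 16.9 ± 1.64 CPM (0.61 ± 0.096, adjusted *P*=3.84e-05). *Ern1* was just above the fold minimum, and its call was lost with library totals, with no filter, and without KO P14 replicate 1 or 2 or KO P21 replicate 1 (log2 fold changes of 0.54 to 0.58). From P21 to P35 *Hyou1* fell from 59.9 ± 4.86 to 39.7 ± 3.32 CPM (−0.59 ± 0.10, adjusted *P*=1.35e-04). This call too lay at the fold minimum and was lost with 5 other settings, among them DESeq2 (−0.58) and library totals (−0.44), and without KO P21 replicate 1, 2 or 3 or KO P35 replicate 1 (−0.58 to −0.54). The difference between a KO step and the WT step is the change of KO effect given above, for which no member passed.

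Of the 9 members with an ERSE shown above, 8 were tested. Their log2 fold changes of KO against WT at P1 were below 0 in 8 of 8, with a median of −0.10, and at P21 above 0 in 8 of 8, with a median of 0.22. At an adjusted *P* under 0.05, 0 of the 8 passed at P1 and 2 at P21. Of the 18 members with a window and no exact ERSE match, 8 were above 0 at P1 (median −0.04) and 11 at P21 (median 0.06), and 0 and 5 of them passed. At P14, 7 of 8 and 11 of 18 were above 0, with medians of 0.11 and 0.03, and at P35 7 of 8 and 13 of 18, with medians of 0.25 and 0.21. Whether the members with and without a site differ was not tested. *Sdf2l1* had a window with none of the 3 motifs, and *Dnajb11* and *Herpud1*, the carriers of ERSE-II, went in opposite directions at P35.

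Other genes of the same compartment were counted in 7 lists that hold none of the members. Across all genes at P35, 8.49% were DEGs in the higher and 7.52% in the lower direction. At an adjusted *P* under 0.05 with no fold minimum, 21.4% of all genes were higher and 20.1% lower. At P35, 0 of 27 tested genes among other folding enzymes were DEGs, with a median log2 fold change of 0.11, and at an adjusted *P* under 0.05 11 were higher and 4 lower. The count of DEGs was 0 of 11 for the oligosaccharyltransferase, which attaches N-glycans (median 0.13; 5 higher and 2 lower at 0.05), and 0 of 10 for collagen folding (median 0.20; 1 higher and 2 lower). Among 20 other degradation genes, 3 DEGs were higher and 1 lower (median 0.05), and at 0.05 5 genes were higher and 5 lower. *Ube2g2*, a ubiquitin-conjugating enzyme of this pathway, rose from 109 ± 9.87 to 236 ± 24.2 CPM (1.13 ± 0.098, adjusted *P*=9.18e-05), *Ubxn4*, a cofactor of the extracting ATPase, by 0.66 ± 0.089 (adjusted *P*=5.01e-04), and *March6*, a ubiquitin ligase of the ER membrane, had −0.72 ± 0.10 (adjusted *P*=6.87e-04). Among 16 other UPR regulators, *Traf2*, an adaptor of IRE1 signalling, was the 1 DEG, at 17.0 ± 1.99 CPM (WT) and 29.0 ± 5.17 CPM (KO; 0.80 ± 0.14, adjusted *P*=0.00167), and the median of the list was −0.05. Among 20 other translocation and signal peptidase genes the 1 DEG was *Sec61a2*, a paralogue of *Sec61a1*, with −0.66 ± 0.099 (adjusted *P*=8.41e-04; median of the list 0.09). Of 12 targets of PERK and ATF4, *Atf3*, a stress-induced transcription factor, and *Psat1*, an enzyme of serine synthesis, were higher by 2.68 ± 0.27 and 1.22 ± 0.15 (adjusted *P*=1.48e-04 and 3.34e-04), with a list median of −0.08. At 0.05, 2 of the other UPR regulators were higher and 3 lower. For the other translocation and signal peptidase genes 8 were higher and 3 lower, and for the targets of PERK and ATF4 3 were higher and 1 lower. At P21 the DEGs of the 7 lists, named after their values were seen, were *Ube2g2* (0.65 ± 0.099), *Traf2* (0.84 ± 0.094) and *Chac1*, a glutathione-degrading enzyme (1.40 ± 0.26), all higher. Each was the 1 DEG of its list, of 20, 16 and 12 genes tested, against 3.18% of all genes in the higher direction.

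Transcripts of other cell types differed between genotypes at the ages at which members did. At P35 the 8 macrophage markers summed to 100.6 to 122.5 CPM in WT and 132 to 198.6 CPM in KO, with 4 DEGs higher. At an adjusted *P* under 0.05, 7 of the 8 were higher and 1 was lower. The 6 adipocyte markers summed to 5.49 to 26.8 and 43.0 to 177 CPM, with 5 DEGs higher. The 8 markers of B and plasma cells, which have a large ER, summed to 28.4 to 66.75 CPM in WT and 17.5 to 24.6 CPM in KO. This fall was in *Ighm* (37.3 ± 16.4 CPM in WT and 5.34 ± 0.997 CPM in KO), whereas the other 7 markers summed to 11.6 to 13.6 and 12.7 to 19.7 CPM, and of 5 tested markers 3 were above 0 (median log2 fold change 0.38), with 1 higher and 1 lower at an adjusted *P* under 0.05. Fibroblast markers overlapped (4347 to 6368 and 4911 to 7915 CPM), with *Postn* higher. Endothelial markers also overlapped (349.7 to 627.8 and 304.7 to 372.9 CPM), with *Cdh5* and *Tek* lower. The overlap came from WT P35 replicate 1, and the other WT libraries were at 559.7 to 627.8 CPM. Of the 6 endothelial markers 0 were above 0, and 4 were lower at an adjusted *P* under 0.05. Fibre markers were at 103400 to 165200 CPM in WT and 66550 to 97010 CPM in KO, with *Acta1* lower. Of 12 keratinocyte markers 4 could be tested and 2 were DEGs, *Trp63* (4.44 ± 0.292 CPM in WT and 21.5 ± 1.49 CPM in KO) and *Sfn* (1.44 ± 0.270 and 13.2 ± 2.04 CPM). The other 10 together were at 5.79 to 8.10 and 5.81 to 7.58 CPM, so the list rose in these 2 genes and not as a whole. At P21 macrophage markers summed to 101.1 to 122 CPM in WT and 134.3 to 166.6 CPM in KO, with 4 DEGs higher, and B and plasma cell markers overlapped (15.8 to 34.4 and 15.5 to 31.9 CPM). Endothelial markers summed to 584.3 to 896.5 CPM in WT and 466.6 to 553.8 CPM in KO, with 0 DEGs and 3 of 6 lower at an adjusted *P* under 0.05. Fibroblast markers overlapped (4543 to 9133 and 5575 to 11430 CPM), with *Postn* higher (1.07 ± 0.20), as did fibre markers (122400 to 183800 and 118600 to 134300 CPM) and adipocyte markers (1.47 to 30.3 and 2.98 to 28.0 CPM), with 0 DEGs in either. *Trp63* (2.27 ± 0.15) and *Sfn* (2.22 ± 0.13) were again higher, with the other 10 keratinocyte markers at 3.41 to 6.22 and 4.25 to 5.08 CPM. The part of these cells in the members' values was not tested.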

How the data were processed

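RNA sequencing was analysed in 32 mouse muscle libraries (4 per genotype and age). The deposited values are expected counts per gene that, per the submitters' processing notes, the authors made with STAR 2.6.1 and RSEM 1.2.22 on GRCm38, whereas the study's methods name HTSeq; the strand setting is not given in the sources used here. 4.26% of the expected counts were not whole and were rounded. The number of columns not used was 0.

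Genes were filtered with filterByExpr, scaled by TMM and tested with the quasi-likelihood test of edgeR 4.0.16 (R 4.3.3), two-sided, and *P*-values were adjusted by the Benjamini-Hochberg method over every gene in the fit. Genotypes were compared age by age (8 libraries per fit), and age steps and changes of KO effect in 1 fit of 32 libraries. DEGs had an adjusted *P* under 0.01 and a change above 1.5-fold. Changes of KO effect had no fold minimum. SE is the log2 fold change divided by the square root of the F statistic. CPM were computed with TMM over all libraries, and per kb with the joined length of all annotated exons of the gene in GENCODE M21. The scripts were tested on simulated data. Replicates differed by more than sampling noise (smallest chi-square per gene 10.5) over all genes. For the 31 tested members, counting error (from the square root of the mean count) was 0.489% to 10.5% of the level and exceeded the SD in 15 of 248 groups of 4 libraries.

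Replicate numbers are shared by the groups. Across genes, the deviation of a library from its group mean correlated with that of the library of the same number in the other genotype for every pair at P14 (*r* 0.413 to 0.81), so the numbers were taken to pair the libraries at that age, and not at P1 (−0.446 to −0.0262), P21 (−0.0661 to 0.301) or P35 (−0.115 to 0.264). Alternatives were DESeq2 1.42.0, other scalings and filters, other thresholds, the replicate block and leaving out each library.

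The members and the lists were chosen with earlier results of these data known. Values in every library were given for members that were DEGs of KO against WT, for *Hspa5*, *Xbp1* and the sensors at P35, and for the 3 largest and 3 smallest changes of each WT age step. Those of *Creld2*, *Pdia3*, *Pdia6* and *Herpud1* at P35, and all such values at P1, P14 and P21 for KO against WT, were added after their values were seen. Of each other list, up to 3 DEGs with the smallest adjusted *P* at P35 were named. Promoter windows (250 bases before to 50 after the start) came from RefSeq on GRCm38.p6, and the members without one were *Hyou1*, *Manf*, *Derl1*, *Atf6* and *Sec61a1*.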

Additional observations from a re-analysis of the deposited data

Results flagged for a closer look

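In 21 of 248 groups of 4 libraries, 1 library stood apart from the other 3 by Dixon's criterion at the 95% level, which chance alone would give in about 12.4. KO P1 replicate 4 did so for 5 members. It was the highest of its group for *Manf* (29.33 CPM), *Derl2* (16.83 CPM) and *Sec61b* (29.52 CPM) and the lowest for *Syvn1* (20.77 CPM) and *Eif2ak3* (15.9 CPM). This library also had the lowest sums of fibre (15700 CPM), fibroblast (14700 CPM) and endothelial (300.9 CPM) markers among the P1 libraries. The count of members without overlap at P1 is given above with and without it.

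At P14, WT replicate 4 was the lowest for *Calr* (216.6 CPM) and *Pdia6* (59.28 CPM) and the highest for *Ppp1r15a* (19.09 CPM), and KO replicate 4 was the lowest for *Hspa5* (258.8 CPM) and the highest for *Ppp1r15a* (20.43 CPM). At P21, WT replicate 3 was low for *P4hb* (237.8 CPM) and *Herpud1* (62.33 CPM), WT replicate 4 was low for *Manf* (24.94 CPM) and WT replicate 1 was high for *Sel1l* (98.06 CPM). In the KO libraries of that age replicate 3 was high for *Derl2* (21.05 CPM) and replicate 1 for *Ern1* (19.3 CPM). At P35, WT replicate 3 was low for *Dnajb11* (51.21 CPM) and *Derl2* (16.95 CPM) and high for *Eif2ak3* (9.496 CPM), KO replicate 1 was low for *Pdia6* (60.99 CPM), and KO replicate 2 was high for *P4hb* (277.7 CPM).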

How the results depend on the processing

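The count of member DEGs for KO against WT was 0 at P1 and P14 under every alternative with the same thresholds. At P21 it went from 0 to 1 with DESeq2, 2 with library totals and 9 with an adjusted *P* under 0.05 and no fold minimum. At P35 it went from 2 to 18 with library totals, 13 with the looser threshold and 4 with at least 10 counts in every library, and was 1 to 5 when a library was left out. From P1 to P14 the count with library totals was 20 in WT (9 with TMM) and 14 in KO (9 with TMM), and 4 log2 fold changes reversed: *Derl1* (−0.15) and *Herpud1* (−0.015) in WT and *Calr* (−0.066) and *Hyou1* (−0.085) in KO. From P14 to P21 in WT it was 0 to 1 when a library was left out. From P21 to P35 in WT the 1 call became 0 with library totals, with no filter and with only the libraries compared, and 0 to 1 when a library was left out; *Herpud1* was called in 1 of these 8 fits and *Pdia4*, lower, in 2. From P21 to P35 in KO the 1 call (*Hyou1*) became 0 with these 3 alternatives, with DESeq2 and with DESeq2's size factors, and 0 to 1 when a library was left out. With the replicate number as a block the counts of member DEGs stayed within 1.5 times, at 0 for P1, P14 and P21 and 2 for P35. The counts of members with a changing KO effect were within 1.5 times under every alternative. Over all counts, 185 settings gave a count within 1.5 times and 33 did not. Over single members, 308 settings kept the direction and the call, 44 kept the direction and lost the call, and 4 reversed. The cause of these changes was not tested.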
